A study of Bos taurus with 179 samples.

Results

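The smallest and the largest growing oocytes of cattle (Bos taurus) were compared, those < 60 μm and those > 120 μm in diameter. The members were the columns of the count table whose oocyte ID begins with A (< 60 μm) or H (> 120 μm), and only oocytes that the study kept after its quality control were used. This gave 21 oocytes < 60 μm, between 48.0 and 59.9 μm in diameter, and 14 oocytes > 120 μm, between 121.5 and 135.0 μm, together 35 of the 165 oocytes kept and of the 179 deposited. All came from abattoir ovaries, and their titles name no treatment. The medium in which ovaries were sliced and recovered oocytes washed held heparin and cilostamide. The study used 2 routes, aspiration of surface follicles and, for oocytes still in growth, dissection of the cortex. By which route each oocyte > 120 μm was taken is not given in the sources used here, so the size groups may differ in it, and size and route cannot then be told apart. All were stripped of cumulus cells, measured, frozen singly and sequenced as polyadenylated mRNA captured on oligo-dT beads. No age, breed or animal is named, so oocytes that share an animal cannot be told apart. Replicate 1, read at 150 bp, held 3 of the smallest and 10 of the largest oocytes, and replicate 2, read at 75 bp, held 18 and 4. The replicate, its library batch and its read length cannot be told apart.

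A mammalian oocyte grows while arrested in the prophase of its first meiotic division. Its genome is transcribed during this time and the cell stores mRNA and protein, which it later uses, with transcription silent, to finish meiosis and to support the first divisions of the embryo. Growth also brings more mitochondria, the zona pellucida, and an exchange of signals with granulosa cells in which the oocyte is the source of BMP15 and related factors.

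The total of counts on genes was 1188219 to 6270510 in the oocytes < 60 μm, with a median of 2563427, and 566827 to 8038061 in those > 120 μm, with a median of 1457609.5. Counts were summed over the oocytes of a size group and replicate for the tests, and the 4 sums compared held 13452646 and 43888471 counts for < 60 μm (replicates 1 and 2) and 24297285 and 4467434 counts for > 120 μm. A single oocyte gave 46.6% of the < 60 μm sum of replicate 1. Levels per oocyte are CPM (counts scaled to a common library size), which are shares of the counted mRNA of an oocyte, so a rise in the amount of RNA per oocyte does not show in them. The reads carry no molecular identifiers, and p-values measure the spread between sums of oocytes, which may be technical.

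The libraries carried oocyte mRNA at both ends of growth. All 5 oocyte markers (BMP15, BTG4, BCAR4, CPEB1 and ASZ1) had counts in each of the 35 oocytes, and their summed level was 3806 to 7752 CPM in oocytes < 60 μm and 6615 to 13803 CPM in those > 120 μm. The 10 markers of granulosa, theca and stroma cells summed to 0.825 to 20.2 CPM in the smallest and 3.38 to 24.4 CPM in the largest oocytes, and the collagen gene COL1A1 was at 0 in all. COL1A2, another collagen gene, had a median of 0.692 CPM in the smallest and 7.65 CPM in the largest oocytes and was called higher (log2 fold change 3.20 ± 0.73 SE, adjusted p = 0.0055, and 2.40 and 6.01 without the < 60 μm sums of replicates 1 and 2). HSD17B1, a granulosa enzyme of estradiol synthesis, had a median of 4.38 CPM in the smallest oocytes, with counts in 20 of 21, and of 0 in the largest, with counts in 6 of 14, and it was called lower (-3.02 ± 0.74, adjusted p = 0.00852, but 0.141 without the > 120 μm sum of replicate 1). FSHR, the receptor of follicle-stimulating hormone on granulosa cells, had counts in 12 of 21 smallest and 1 of 14 largest oocytes. The 4 endothelial markers summed to at most 4.74 CPM, with CD34 and CDH5 at 0 in all oocytes, and the 6 immune and blood markers to at most 10.7 CPM, with CD14 at 0 in all. Among the latter the haemoglobin gene HBA had counts in 9 of 21 smallest and 12 of 14 largest oocytes (medians of 0 and 4.95 CPM), and CD74, of antigen-presenting cells, in 6 of 21 and 0 of 14. Neither passed the test (adjusted p = 0.19 and 0.0522). The part of these low levels in the differences below was not tested.

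The first question was how far the mRNA of an oocyte changes between the ends of growth. Of 14087 genes tested, 1319 were upregulated and 1381 downregulated in oocytes > 120 μm against those < 60 μm, which is 19.2% of all genes (9.36% upregulated, 9.8% downregulated; edgeR's quasi-likelihood test on the sums with the replicate as a block, Benjamini-Hochberg adjusted p below 0.05). The upregulated genes had a median log2 fold change of 1.68, with quartiles of 1.25 and 2.46, and the downregulated genes one of -1.54, with quartiles of -2.43 and -1.17. A change beyond 3 on the log2 scale was fitted for 216 upregulated and 247 downregulated genes. The direction was the same in both replicates for 1313 of the upregulated and 1378 of the downregulated genes, and for 65.9% of all genes tested. Since the calls come from these same sums, the agreement of called genes is no independent support. The median log2 fold change over all genes tested was -0.12.

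The number of calls fell by over 1.5 times without the block and without any 1 of the 4 sums other than the < 60 μm sum of replicate 2. Without the < 60 μm sum of replicate 1, 579 genes were upregulated and 514 downregulated, and without that of replicate 2, 1491 and 1092. Without the > 120 μm sum of replicate 1, 669 genes were upregulated and 3.09% of genes tested were downregulated, and without that of replicate 2, 954 and 564 genes were called. With each of the 4 left out in turn, 659 genes were called every time, 32.0% of the upregulated and 17.2% of the downregulated genes. Without the replicate as a block 44 genes were upregulated and 37 downregulated, all of them also called with it. Of 90 called genes that were named or listed here, 22 had a fitted fold that moved by over 1.5 times with 1 of the 4 sums left out, 15 of them without the < 60 μm sum of replicate 2, and most of these values are given with the genes.

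**Figure D1:**
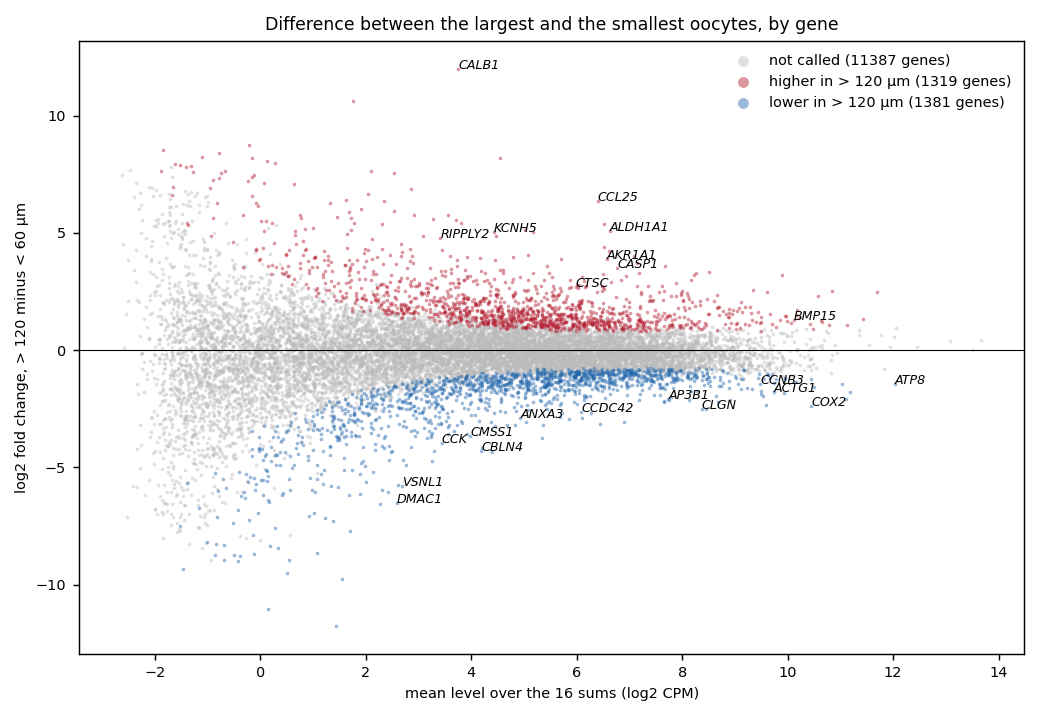
Each point is a gene, with its mean level over the 16 sums of size group and replicate (x axis, log2 CPM) and the fitted log2 fold change, oocytes > 120 μm minus < 60 μm (y axis). The 1319 upregulated genes (red) and 1381 downregulated genes (blue) lie on either side of 0 at all levels but the lowest, where genes with large fitted changes were mostly not called (grey).

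The number of genes with mRNA in an oocyte hardly moved. With each oocyte thinned to 250000 counts, a median of 9647 genes had at least 1 count in oocytes < 60 μm (lowest 8036, highest 10562) and of 9646.5 in oocytes > 120 μm (lowest 8622, highest 10480). Within replicate 1 the medians were 9651 and 9612.5 genes, and within replicate 2 they were 9643 and 9710.5. As deposited, without thinning, they were 11638 and 11300. The 100 most abundant genes of an oocyte took a median of 19.3% of its counts in the smallest and 24.2% in the largest oocytes. This share was higher in the largest oocytes in replicate 1 (medians of 21.1% and 25.1%) but not in replicate 2 (19.3% and 19.0%).

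Few genes had counts at one end of growth alone. Of all 21218 gene IDs, 21 had no count in any oocyte < 60 μm and a count in at least 50% of those > 120 μm, and 18 showed the reverse. Their mean levels, not scaled to gene length, were at most 21.2 CPM among the former, which include CALB1, and 7.05 CPM among the latter. A 0 is easier to reach at the large end, with 14 oocytes and 28764719 counts against 21 oocytes and 57341117 counts at the small end. Oocytes of the 2 groups did not overlap at all for 59 genes that were higher in every oocyte > 120 μm (0.419% of genes tested) and for 17 that were lower in every one (0.121%). Of these, 15 and 5 carry a symbol here. The 5 were CLGN, AP3B1, CXHXorf38, CAPRIN1 and API5, the last 3 of which are named because their values were seen.

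The genes with the smallest adjusted p among those upregulated were a mixed set that held enzymes, a chemokine, a channel and a corepressor. CCL25, a chemokine that attracts lymphocytes, had 0 to 6.35 CPM in oocytes < 60 μm, with a median of 1.34, and 18.8 to 1511 CPM in those > 120 μm, with a median of 397.1. Every large oocyte lay above every small one, with medians of 453.0 CPM in replicate 1 and 68.9 CPM in replicate 2 at the large end, and the log2 fold change was 6.34 ± 0.54 (adjusted p = 1.61e-06). CASP1, the protease that activates inflammatory cytokines, went from 4.51 to 61.6 CPM (median 25.4) to 108 to 537 CPM (median 217), again with no overlap (3.50 ± 0.32, adjusted p = 3.13e-06). AKR1A1, an aldo-keto reductase that reduces aldehydes, had 0 to 21.9 CPM (median 12.5) at the small end and 51.2 to 546 CPM (median 269.9) at the large end (3.88 ± 0.37, adjusted p = 5.77e-06).

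ALDH1A1, which makes retinoic acid from retinaldehyde, had a median of 0.469 CPM in oocytes < 60 μm (0 to 27.1) and 75.7 CPM in those > 120 μm (5.77 to 602). The groups overlapped, with 11 of the 14 large oocytes above the highest small one, and the log2 fold change was 5.07 ± 0.53 (adjusted p = 1.34e-05). KCNH5, a voltage-gated potassium channel, had counts in 8 of 21 small and all 14 large oocytes, with medians of 0 and 27.2 CPM (5.05 ± 0.53, adjusted p = 1.34e-05). RIPPLY2, a transcriptional corepressor known from the segmentation of the embryo, rose from a median of 0 to one of 21.6 CPM (4.78 ± 0.58, adjusted p = 3.85e-05).

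CALB1, the calcium buffer calbindin, was not detected at the small end. It had no count in any of the 21 oocytes < 60 μm and counts in 13 of 14 oocytes > 120 μm, with a median of 11.6 and a highest value of 87.3 CPM. Against a floor of 3 counts in the < 60 μm sum of the same replicate it was at least 78.9-fold higher in replicate 1 and at least 303-fold higher in replicate 2 (adjusted p = 3.26e-05). The fitted log2 fold change of 12.0 depends on the prior count and is no bound. IL23R and MYLK2, 2 further genes of this kind, named because their values were seen, had at most 59 counts in a sum of the largest oocytes.

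The 7 upregulated genes described above were called with each of the 4 sums left out in turn. Without the block, CASP1, ALDH1A1 and CALB1 were still called and the other 4 had adjusted p between 0.0726 and 0.102. Of gene IDs with no symbol, ENSBTAG00000007169 (median 4.07 against 220.7 CPM, 4.39 ± 0.34, adjusted p = 1.16e-06) and ENSBTAG00000027841 (0 against 64.3 CPM, 8.21 ± 0.69, adjusted p = 1.61e-06) led the upregulated genes. Without the < 60 μm sum of replicate 2 the log2 fold change was 5.00 for the former, 13.7 for the latter, 7.75 for CCL25, 4.48 for AKR1A1, 6.38 for ALDH1A1 and 5.94 for RIPPLY2. Without that of replicate 1 it was 5.57 for CCL25 and 7.56 for ENSBTAG00000027841. The value of 13.7 is no bound, since the < 60 μm sum of replicate 1 held no count of ENSBTAG00000027841.

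**Figure D2:**
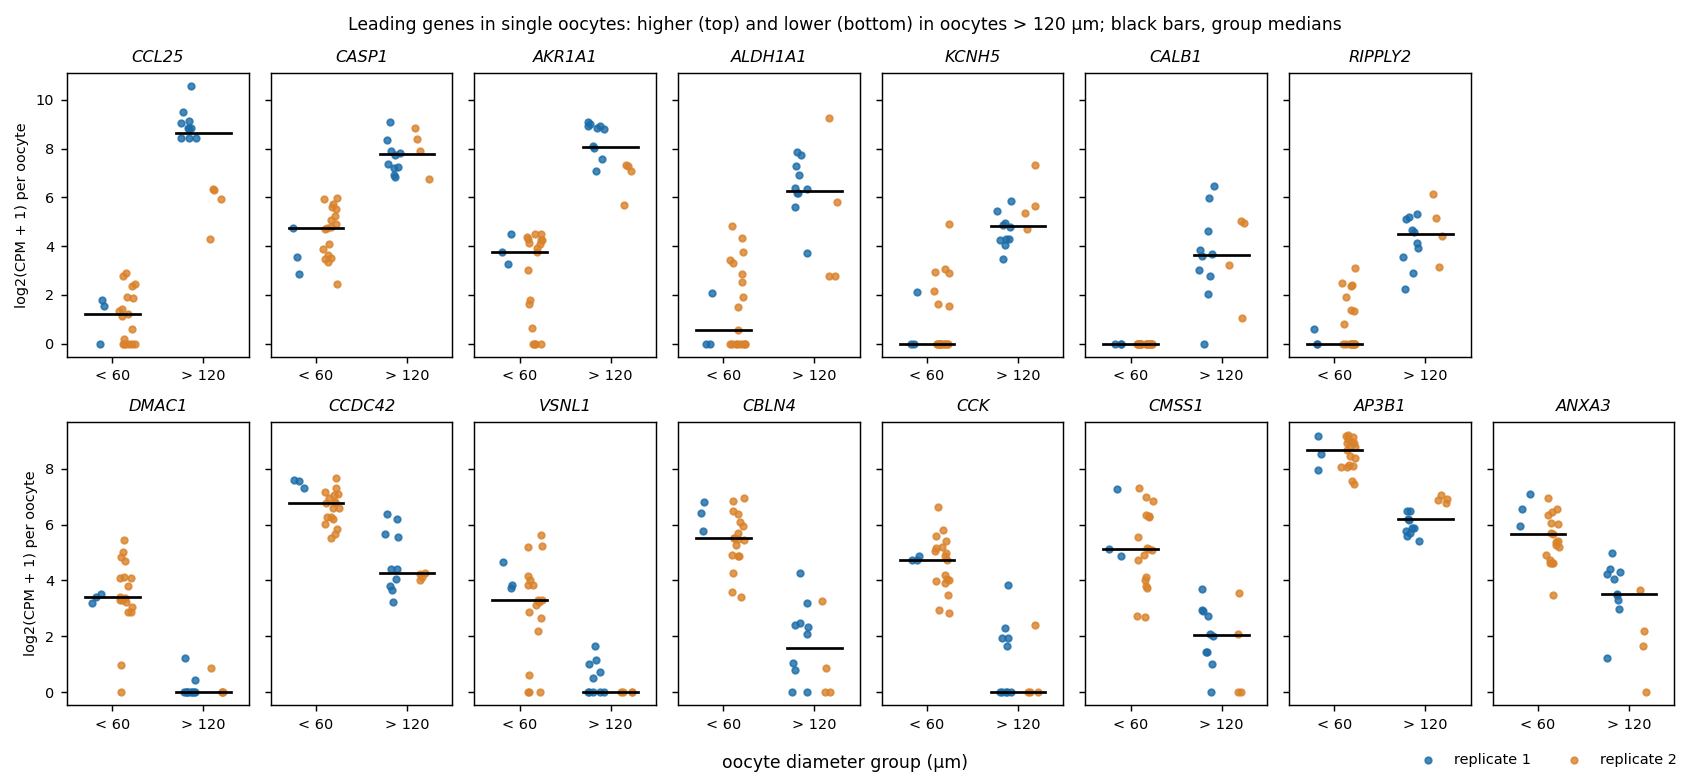
Each point is an oocyte, with log2(CPM + 1) on the y axis and the diameter group on the x axis, for 7 upregulated (top) and 8 downregulated genes (bottom) with the smallest adjusted p among genes with a symbol. Colours give the replicate and black bars the group medians. CCL25, CASP1 and AKR1A1 were higher in all 14 oocytes > 120 μm than in any of the 21 < 60 μm, and AP3B1 was lower in all 14.

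Several of the leading downregulated genes were near zero in the largest oocytes. DMAC1, an assembly factor of respiratory complex I, had 0 to 42.7 CPM in oocytes < 60 μm, with a median of 9.69 and counts in 20 of 21, and at most 1.34 CPM in those > 120 μm, with counts in 3 of 14 (-6.51 ± 0.75, adjusted p = 2.43e-05). VSNL1, a neuronal calcium sensor, had medians of 8.87 and 0 CPM, with counts in 18 of 21 and 5 of 14 oocytes (-5.79 ± 0.71, adjusted p = 3.96e-05). It had no count in the > 120 μm sum of replicate 2, and without that of replicate 1 the fitted value, then no bound, was -11.1. CCK, the peptide hormone cholecystokinin, had 6.11 to 98.9 CPM (median 25.7) at the small end and 0 to 13.4 CPM (median 0) at the large end, where 13 of 14 oocytes lay below the lowest small one (-3.97 ± 0.52, adjusted p = 7.21e-05). CBLN4, a secreted synaptic organiser of the cerebellin family, had 9.70 to 123.5 CPM (median 45.01) against 0 to 18.3 CPM (median 2.16) and the same 13 of 14 below (-4.30 ± 0.55, adjusted p = 5.92e-05).

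CCDC42, a coiled-coil protein needed for sperm formation, went from 44.8 to 201.5 CPM (median 109.7) to 8.44 to 83.2 CPM (median 18.1), a log2 fold change of -2.66 ± 0.32 (adjusted p = 3.61e-05). AP3B1, a large subunit of the adaptor AP-3 that sorts cargo to lysosome-related organelles, had 173 to 600.3 CPM (median 408.6) against 41.4 to 131.98 CPM (median 71.8), with no overlap (-2.11 ± 0.30, adjusted p = 0.000148). CMSS1 had medians of 33.97 and 3.11 CPM, with counts in 21 of 21 and 11 of 14 oocytes (-3.67 ± 0.50, adjusted p = 9.17e-05) and ANXA3, an annexin that binds phospholipids with calcium, 50.3 and 10.3 CPM (-2.91 ± 0.42, adjusted p = 0.00015). These 8 genes were called with each of the 4 sums left out, and without the block AP3B1 (adjusted p = 0.137) and ANXA3 (0.0588) lost the call. Without the > 120 μm sum of replicate 1 the log2 fold change was -5.74 for DMAC1, -4.86 for CCK, -5.25 for CBLN4 and -3.56 for ANXA3, and without the < 60 μm sum of replicate 1 that of CBLN4 was -3.33. The leading IDs with no symbol were ENSBTAG00000003392 (median 19.6 against 1.90 CPM, -4.36 ± 0.45, adjusted p = 1.25e-05) and ENSBTAG00000005385 (58.7 against 9.29 CPM, -3.20 ± 0.36, adjusted p = 1.81e-05).

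Groups of genes with known roles were then counted. Symbols could be paired with 3608 gene IDs, mostly those that begin with A to C, so each group holds the members with such a symbol and not the whole pathway. Of the tested members of 22 groups and 5 single genes (BMP15, ACTL8, BCAR4, CTSC and CBLN4), each counted once, 37 were upregulated and 34 downregulated, or 23.7% called. This stands beside 18.8% of the 2923 tested genes with a symbol (9.51% upregulated, 9.27% downregulated) and the 19.2% of all genes. CHD2, which shares its symbol between 2 IDs, was the member left out.

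Energy metabolism came first. The mitochondrial genome encodes subunits of the respiratory chain and of ATP synthase, and of the 4 such genes with a symbol, 3 were downregulated and none upregulated, with a median log2 fold change of -1.43. COX2, a subunit of cytochrome c oxidase, had 934 to 3804 CPM (median 2300.0) in oocytes < 60 μm and 134 to 1203 CPM (median 476) in those > 120 μm, where 12 of 14 lay below the lowest small oocyte (-2.40 ± 0.44, adjusted p = 0.00107). ATP8 and ATP6, subunits of ATP synthase whose genes overlap so that their reads may not be fully separable, had medians of 5925 against 2432 CPM (-1.46 ± 0.45, adjusted p = 0.0301) and of 1276 against 476 CPM (-1.40 ± 0.44, adjusted p = 0.0324). COX1 was not called, with medians of 4410 and 1424 CPM (-0.82 ± 0.49, adjusted p = 0.251). The COX2 call held with each sum left out, while the calls of ATP6 and ATP8 held only without the < 60 μm sum of replicate 2 and had adjusted p between 0.105 and 0.252 without one of the others. Together the 4 genes took a median of 1.43% of counts in the smallest and 0.507% in the largest oocytes (1.39% and 0.466% in replicate 1, 1.46% and 0.769% in replicate 2), in oocytes from which the study had removed those rich in noncoding mitochondrial reads.

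Nuclear partners of these complexes were called about as often as all genes (19.2%). Of 15 nuclear ATP synthase genes, 1 was upregulated and 1 downregulated (13.3% called, median -0.30), and these encode forms of the same ring subunit. ATP5MC1 had 91.1 to 354 CPM (median 178) at the small end and 186 to 757 CPM (median 471.9) at the large end (0.99 ± 0.30, adjusted p = 0.0263), and ATP5MC2 had medians of 31.9 and 24.97 CPM (-1.45 ± 0.31, adjusted p = 0.00369). Of 10 nuclear cytochrome c oxidase genes, COX5A was upregulated (median 128.3 against 374 CPM, 0.99 ± 0.30, adjusted p = 0.0286) and COX8A downregulated (73.7 against 67.4 CPM, -0.85 ± 0.29, adjusted p = 0.0448), with 20% called and a list median of -0.40. Neither COX5A nor COX8A kept its call when any of the 4 sums was left out (adjusted p between 0.0615 and 0.328). The call of ATP5MC2 was lost without the > 120 μm sum of replicate 1 (0.0686), and that of ATP5MC1 without either sum of replicate 2 (0.156 and 0.216). Of 22 genes of fatty acid and acyl-CoA metabolism, ACACB, an acetyl-CoA carboxylase, was upregulated (0.91 ± 0.29, adjusted p = 0.0319) and ACADS, a dehydrogenase of short-chain fatty acids, downregulated (-1.19 ± 0.35, adjusted p = 0.0244), and the list median was -0.04. Each of these kept its call in 1 of the 4 cases.

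The cell cycle genes were counted in 4 lists. Of 22 cyclins, cyclin-dependent kinases and their regulators, 6 were upregulated and 1 downregulated, with a median log2 fold change of 0.56 beside -0.12 for all genes. CKS1B, a small subunit that binds cyclin-dependent kinases, had 298.7 to 855 CPM (median 637) in oocytes < 60 μm and 942 to 2892 CPM (median 1327) in those > 120 μm, with no overlap (1.12 ± 0.27, adjusted p = 0.00718). CCNE2, a cyclin of the entry into DNA synthesis, had medians of 7.85 and 27.2 CPM (2.36 ± 0.41, adjusted p = 0.000698, and 1.78 without the > 120 μm sum of replicate 2), and CDC25B, the phosphatase that activates CDK1 when oocytes resume meiosis, had 16.6 and 63.8 CPM (1.78 ± 0.35, adjusted p = 0.00196). These 3 calls held with each of the 4 sums left out.

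CCNB2, a B-type cyclin, had 154.5 to 557 CPM (median 366) and 465.2 to 2851 CPM (median 991), so that 12 of 14 large oocytes lay above the highest small one (1.27 ± 0.30, adjusted p = 0.00694). CCNB3, a cyclin that acts in the first meiotic division of the oocyte, was the one member called downregulated, from 419.5 to 1968 CPM (median 1191) to 199.1 to 793 CPM (median 396), a log2 fold change of -1.43 ± 0.34 (adjusted p = 0.00648). The calls of CCNB2 and CCNB3 were lost without either sum of replicate 1, that of the smallest (adjusted p = 0.101 and 0.0997) or of the largest oocytes (0.0953 and 0.136). CDC25A and CKS2, the other upregulated members, kept no call in these 4 cases. CDK1 itself was not called, with medians of 357.9 and 391 CPM (0.81 ± 0.33, adjusted p = 0.0891), nor was CCNB1, with 782 and 1489 CPM (0.34 ± 0.29, adjusted p = 0.447). The medians of CCNB1 were closer within replicate 1 (1479 and 1559 CPM) and within replicate 2 (749 and 918 CPM).

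Of 12 genes of the spindle checkpoint and the chromosomal passenger complex, 2 were upregulated and none downregulated (median 0.54). AURKC, the Aurora kinase of germ cells, had 15.9 to 106 CPM (median 54.1) in the smallest and 84.4 to 542 CPM (median 249.4) in the largest oocytes, 13 of which lay above the highest small one (1.67 ± 0.30, adjusted p = 0.000881), and the call held with each sum left out. AURKB had medians of 50.8 and 173 CPM (0.86 ± 0.26, adjusted p = 0.027) and kept its call in 1 of the 4 cases, without the < 60 μm sum of replicate 1. Of 13 inner kinetochore genes, which tie centromeres to spindle microtubules, CENPL, CENPM and CENPT were upregulated (1.19 to 1.42) and CENPS was downregulated, with a median of 237.7 CPM in the smallest and 65.5 CPM in the largest oocytes (-1.87 ± 0.36, adjusted p = 0.0016). The CENPS call held with each sum left out, and those of CENPL, CENPM and CENPT in 3, 2 and 2 of the 4 cases. Of 12 subunits of the anaphase promoting complex, ANAPC11 was called upregulated (0.91 ± 0.31, adjusted p = 0.046), while the list median was -0.21 with 8 of 12 fitted lower, and only without the < 60 μm sum of replicate 2 was that call kept.

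The centrosome and microtubule genes moved both ways, with 5 upregulated and 3 downregulated of 19 (median -0.07). CEP192, a scaffold of microtubule-organising centres, had medians of 50.99 and 64.5 CPM over all oocytes, of 25.04 and 61.1 CPM within replicate 1 and of 51.4 and 214.5 CPM within replicate 2 (1.57 ± 0.29, adjusted p = 0.00129), and its call held with each sum left out. The gap within each replicate is thus wider than the pooled one, since the replicates are mixed unequally in the 2 groups. CEP63, a centriole duplication factor, went from 70.4 to 267 CPM (median 116) to 15.4 to 93.0 CPM (median 39.8), with 13 of 14 large oocytes below the lowest small one (-1.54 ± 0.33, adjusted p = 0.00371, but 0.0514 and 0.0508 without either sum of replicate 1). CEP152 (1.09 ± 0.27, adjusted p = 0.00962) and CLASP1, which stabilises microtubule ends (-1.46 ± 0.37, adjusted p = 0.0109), were each called in 2 of the 4 cases.

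Genes of vesicle coats were down where they were called. Of 20 clathrin and adaptor genes 5 were downregulated and none upregulated (median -0.36), and of 7 genes of the COPI coat, which carries vesicles back from the Golgi, 2 and none (median -0.73). COPB1, a large COPI subunit, had 342 to 1737 CPM (median 877) in oocytes < 60 μm and 47.2 to 582 CPM (median 166) in those > 120 μm (-1.47 ± 0.39, adjusted p = 0.0131), and COPZ2 had medians of 11.8 and 4.69 CPM (-2.45 ± 0.47, adjusted p = 0.00161). AP2B1 and AP2A2, subunits of the endocytic adaptor AP-2, had medians of 173 against 102 CPM (-1.31 ± 0.36, adjusted p = 0.0149) and of 36.0 against 15.3 CPM (-1.55 ± 0.40, adjusted p = 0.0113). The calls of COPZ2 and of AP3B1, described above, held with each sum left out. That of COPB1 was lost without either sum of replicate 1 (0.14 and 0.209). Without the < 60 μm sum of replicate 1, 1 of the 5 clathrin and adaptor calls remained, and without the > 120 μm sums of replicates 1 and 2, 1 and 3. Without the < 60 μm sum of replicate 2, 2 clathrin and adaptor genes and 1 COPI gene were upregulated.

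Of 7 subunits of the CCT chaperonin, which folds actin and tubulin, CCT3 and CCT6A were downregulated (median -0.50). CCT3 had a higher median in the largest oocytes when all were pooled, 526 against 789 CPM, but a lower one within replicate 1 (1741 against 799 CPM) and within replicate 2 (523 against 193 CPM), and the fit with the replicate as a block gave -1.04 ± 0.31 (adjusted p = 0.0252). Its call was kept in 1 of the 4 cases and that of CCT6A (-1.13 ± 0.35, adjusted p = 0.0311) in 2. Of 9 subunits of the COP9 signalosome, a regulator of ubiquitin ligases, COPS5, COPS8 and COPS9 were downregulated (-0.93 to -1.20) and COPS4 upregulated (1.08 ± 0.29, adjusted p = 0.0131), and each kept its call in 0 to 2 of the 4 cases. Without the < 60 μm sum of replicate 2 the signalosome had 2 upregulated and 1 downregulated. Of 18 actin genes ACTG1 and ACTN4 were downregulated and none upregulated (11.1% called, median -0.26). ACTG1, a cytoplasmic actin, had medians of 2041 against 570 CPM in replicate 1 and 946 against 356.3 CPM in replicate 2 (-1.77 ± 0.32, adjusted p = 0.000935), and its call held with each sum left out, while ACTN4 lost its call without any of them.

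Calcium binding and endoplasmic reticulum genes included one of the clearest falls. CLGN, calmegin, a germ cell chaperone of the endoplasmic reticulum, had 349.7 to 1050 CPM (median 575) in oocytes < 60 μm and 45.4 to 271 CPM (median 124) in those > 120 μm, with no overlap (-2.52 ± 0.37, adjusted p = 0.000191), and the call held with each sum left out. CALR, the calcium store protein calreticulin, had medians of 226 and 138 CPM (-0.88 ± 0.27, adjusted p = 0.0306) and lost its call without any 1 of the 4 sums. Of the 8 genes of this list 1 was upregulated, CALB1, and 2 downregulated (median -0.29).

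Where a list had no call in one direction by edgeR, DESeq2 also had none for the mitochondrial genes (upregulated), the CCT subunits, the COPI coat and the actin genes (upregulated) and the BMP and activin family (downregulated). It called 1 upregulated clathrin or adaptor gene, 1 downregulated gene of the spindle checkpoint and passenger list, 1 downregulated subunit of the anaphase promoting complex and 2 downregulated cell death genes. At an unadjusted p below 0.05, edgeR had 2 upregulated clathrin and adaptor genes, 1 upregulated actin gene, 2 downregulated spindle checkpoint and passenger genes, 2 downregulated anaphase promoting complex genes, 2 downregulated cell death genes and 1 downregulated gene of the BMP and activin family in these directions, and none for the mitochondrial genes, the CCT subunits and the COPI coat.

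**Figure D3:**
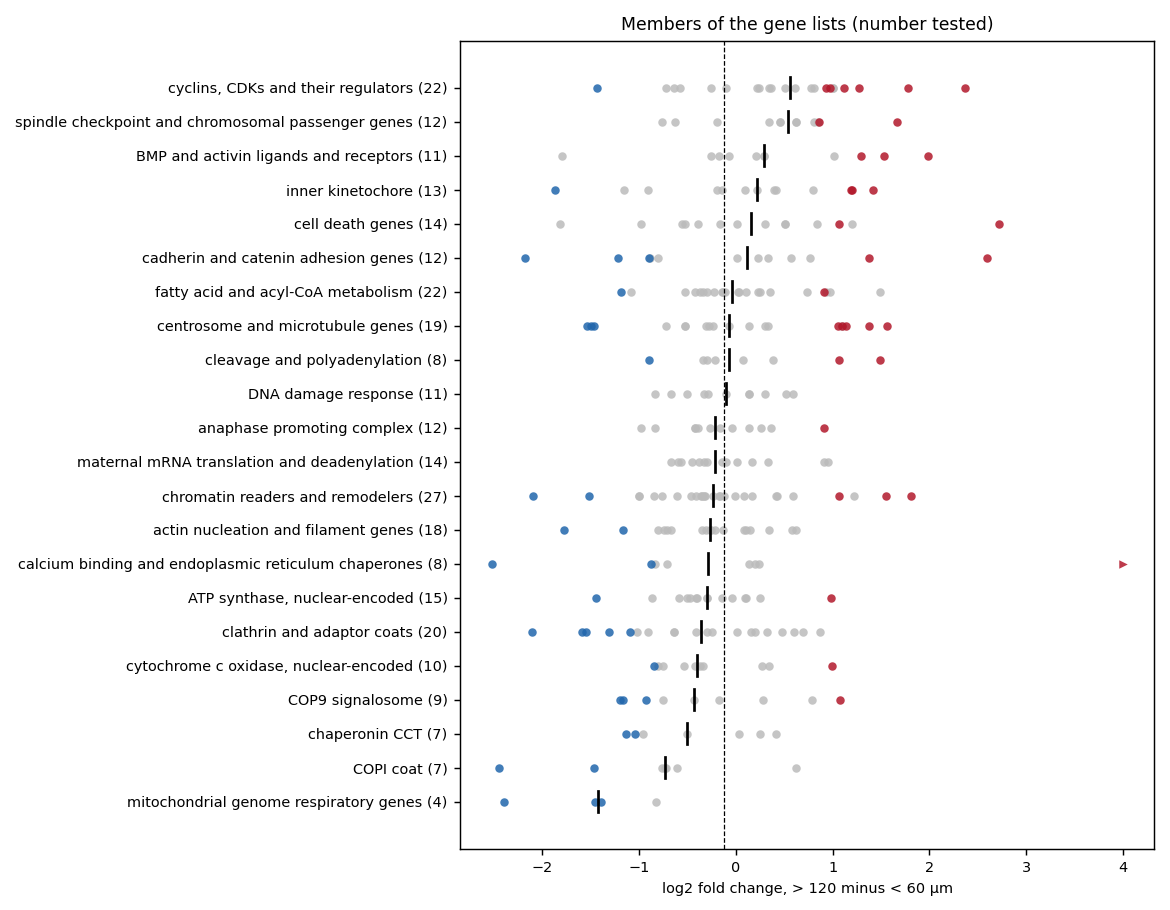
Each point is a tested gene of a list, placed by its log2 fold change, oocytes > 120 μm minus < 60 μm (x axis), with red for upregulated, blue for downregulated and grey for genes not called. Black bars are list medians, the dashed line is the median of all genes (-0.12), and the red arrowhead stands for CALB1, whose fitted value of 12.0 lies outside the axis. Of the 4 mitochondrial genes, 3 were downregulated, and of the 22 cyclins and regulators, 6 were upregulated.

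Signals that oocytes send and receive were counted over 11 ligands and receptors of the BMP and activin family, of which 3 were upregulated and none downregulated (median 0.29). BMP15, the oocyte factor that acts on granulosa cells, had 325 to 1582 CPM (median 663) in oocytes < 60 μm and 226 to 2637 CPM (median 1753) in those > 120 μm. Of the largest oocytes 10 lay above the highest small one and 2 below the lowest, and the log2 fold change was 1.29 ± 0.40 (adjusted p = 0.03, but 0.162 and 0.155 without the < 60 μm sum of replicate 1 or the > 120 μm sum of replicate 2). BMP4 had medians of 3.82 and 48.7 CPM (1.98 ± 0.46, adjusted p = 0.00591), of 7.36 and 59.5 CPM within replicate 1 and 3.63 and 6.23 CPM within replicate 2, and it lost its call without either sum of replicate 1 (log2 fold changes of 1.28 and 1.33, adjusted p = 0.104 and 0.173), while without the < 60 μm sum of replicate 2 the log2 fold change was 3.18. BMP6, with medians of 2.98 and 8.48 CPM (1.53 ± 0.51, adjusted p = 0.0422), lost it without any 1 of the 4 sums. BMPR2, a receptor, was not called (-0.18 ± 0.39, adjusted p = 0.792).

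Of 12 genes of cell adhesion 2 were upregulated and 3 downregulated (median 0.12), and the 2 classical cadherins moved in opposite directions. CDH1, E-cadherin, had 9.05 to 102 CPM (median 53.9) in the smallest and 54.7 to 369 CPM (median 141) in the largest oocytes (1.38 ± 0.29, adjusted p = 0.00325, but 0.0682 without the < 60 μm sum of replicate 1). CDH3, P-cadherin, had medians of 618 and 422 CPM (-1.22 ± 0.29, adjusted p = 0.00741, but 0.0791 and 0.0716 without either > 120 μm sum). CLDN11, a tight junction claudin, had medians of 3.77 and 44.4 CPM (2.59 ± 0.58, adjusted p = 0.00448), and CXADR, an adhesion protein of tight junctions, 73.2 and 15.9 CPM (-2.18 ± 0.39, adjusted p = 0.000911), and both calls held with each sum left out. The log2 fold change of CLDN11 was 1.72 without the < 60 μm sum of replicate 1 and 4.86 without that of replicate 2. That of CXADR was -2.98 and -1.56 without the > 120 μm sums of replicates 1 and 2.

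The regulators of chromatin held 3 upregulated and 2 downregulated genes among 27 tested (median -0.23). ARID1A, a subunit of the SWI/SNF remodeller, had 11.7 to 57.3 CPM (median 24.7) in oocytes < 60 μm and 32.0 to 121 CPM (median 53.4) in those > 120 μm (1.55 ± 0.30, adjusted p = 0.00158). BRD3, a reader of acetylated histones, had medians of 13.5 and 34.7 CPM (1.81 ± 0.39, adjusted p = 0.00404), and CBX3, a heterochromatin protein with many processed copies that may share its reads, 70.2 and 16.6 CPM (-2.09 ± 0.40, adjusted p = 0.00138). These 3 calls held with each sum left out. BMI1, a Polycomb protein, had medians of 20.6 and 3.49 CPM (-1.51 ± 0.42, adjusted p = 0.0163) and kept its call in 2 of the 4 cases, as did CTCF, the architectural protein (1.07 ± 0.30, adjusted p = 0.0186).

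Of 14 cell death genes 2 were upregulated and none downregulated (median 0.16). BAD, a BCL2 family member that promotes apoptosis, had 0 to 6.60 CPM (median 1.59) in the smallest and 3.88 to 36.4 CPM (median 15.6) in the largest oocytes (2.72 ± 0.64, adjusted p = 0.00682), and its call held with each sum left out. CASP6, an executioner caspase, had medians of 129.8 and 262.6 CPM (1.06 ± 0.25, adjusted p = 0.00612, but 0.0527 without the < 60 μm sum of replicate 1). CASP9 was called downregulated without the < 60 μm sum of replicate 1 and BIRC2 without the > 120 μm sum of replicate 2. CASP1, with no overlap between groups, was not a member of this list.

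None of the 14 genes of maternal mRNA translation and deadenylation passed edgeR's test, with a median of -0.22, and at an unadjusted p below 0.05 there were 3, of which DESeq2 called 1. Among them BTG4, which recruits the deadenylase that clears maternal mRNA, had 1444 to 5680 CPM (median 2791) in the smallest and 2401 to 10771 CPM (median 5408) in the largest oocytes (0.95 ± 0.34, adjusted p = 0.0553), and CPEB1, which holds stored mRNA dormant, had medians of 1217 and 1835 CPM (0.17 ± 0.32, adjusted p = 0.749). The medians of CPEB1 were 2029 and 2081 CPM within replicate 1 and 1168 and 870 CPM within replicate 2. None of the 11 DNA damage genes was called by edgeR or DESeq2 (median -0.10, with 1 at an unadjusted p below 0.05 and 1 called without the < 60 μm sum of replicate 2), with BRIP1 at 340.2 and 247 CPM (-0.33 ± 0.39, adjusted p = 0.598). BRCA2 had medians of 474 and 304.9 CPM over all oocytes, but of 231.7 and 281.8 CPM within replicate 1 and of 512 and 956 CPM within replicate 2 (0.59 ± 0.35, adjusted p = 0.251). Within these limits neither a rise nor a fall could be told. Of 8 cleavage and polyadenylation factors 37.5% were called. CPSF4 (1.49 ± 0.37, adjusted p = 0.00901) and CSTF2 (1.06 ± 0.32, adjusted p = 0.0241) were upregulated and CPSF6 (-0.89 ± 0.28, adjusted p = 0.034) downregulated. CPSF4 and CSTF2 lost their calls without either sum of replicate 1 (0.133 to 0.278), CPSF4 was at 2.21 without the < 60 μm sum of replicate 2, and CPSF6 lost its call without any 1 of the 4 sums.

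Of the 5 single genes the study's text names BMP15, ACTL8 and BCAR4, and CTSC and CBLN4 were taken from earlier results of these data. All were chosen on these oocytes, so their directions are not independent evidence. All 5 were called. CTSC, the lysosomal peptidase cathepsin C, had 2.24 to 43.3 CPM (median 15.3) in the smallest and 45.5 to 292 CPM (median 89.0) in the largest oocytes, with no overlap (2.70 ± 0.37, adjusted p = 0.000106). BCAR4, an oocyte-expressed gene of cattle, had medians of 64.1 and 131.01 CPM (1.21 ± 0.26, adjusted p = 0.00385). ACTL8, an actin-like protein, had counts in 8 of 21 and 13 of 14 oocytes (2.46 ± 0.68, adjusted p = 0.0168, but 0.151 without the < 60 μm sum of replicate 1 and 0.0668 without the > 120 μm sum of replicate 2). Its log2 fold change was 1.69 without the < 60 μm sum of replicate 1 and 3.97 without that of replicate 2, where that of CTSC was 3.53. BMP15 and CBLN4 are described above.

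The second question was where between the ends the difference arose, read from the 6 groups in between. Their levels were not part of the contrast that chose the genes, but they were fitted with it and shared in its estimate of the spread (with the 4 end sums alone, 1589 genes were called in place of 2700). Each gene's log2 change from < 60 μm was taken as a percent of its change to > 120 μm. Over these 6 groups, in order of size, the upregulated genes had reached a median of 20.6%, 38.3%, 45.3%, 57.6%, 86.02% and 83.5%. The downregulated genes had reached 15.5%, 25.5%, 36.7%, 46.1%, 72.4% and 76.7%. Both courses were thus spread over the whole of growth, and the widest step of the median between neighbouring groups lay in both between 90–99 and 100–109 μm. In replicate 2 alone the downregulated genes had reached 39.4%, 57.7% and 77.0% in the groups of 90–99, 100–109 and 110–119 μm, so that there the step into > 120 μm was the widest. The steps are a description with no test, and since the ends that scale them also chose the genes, the percentages may be too low.

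In replicates 1 and 2 the upregulated genes had reached 51.5% and 36.5% at 80–89 μm, 88.0% and 83.0% at 100–109 μm, and 78.1% and 93.0% at 110–119 μm, so that after 100–109 μm the median fell back in replicate 1 and went on rising in replicate 2. The downregulated genes had reached 85.3% and 57.7% at 100–109 μm, and 78.6% and 77.0% at 110–119 μm. Their median thus also fell back in replicate 1 and rose in replicate 2. The level at 100–109 μm was already beyond that at > 120 μm for 29.9% of the upregulated and 16.9% of the downregulated genes. The largest single step fell between 90–99 and 100–109 μm for 27.5% of upregulated and 23.8% of downregulated genes, and between 110–119 and > 120 μm for 12.6% and 27.4%.

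**Figure D4:**
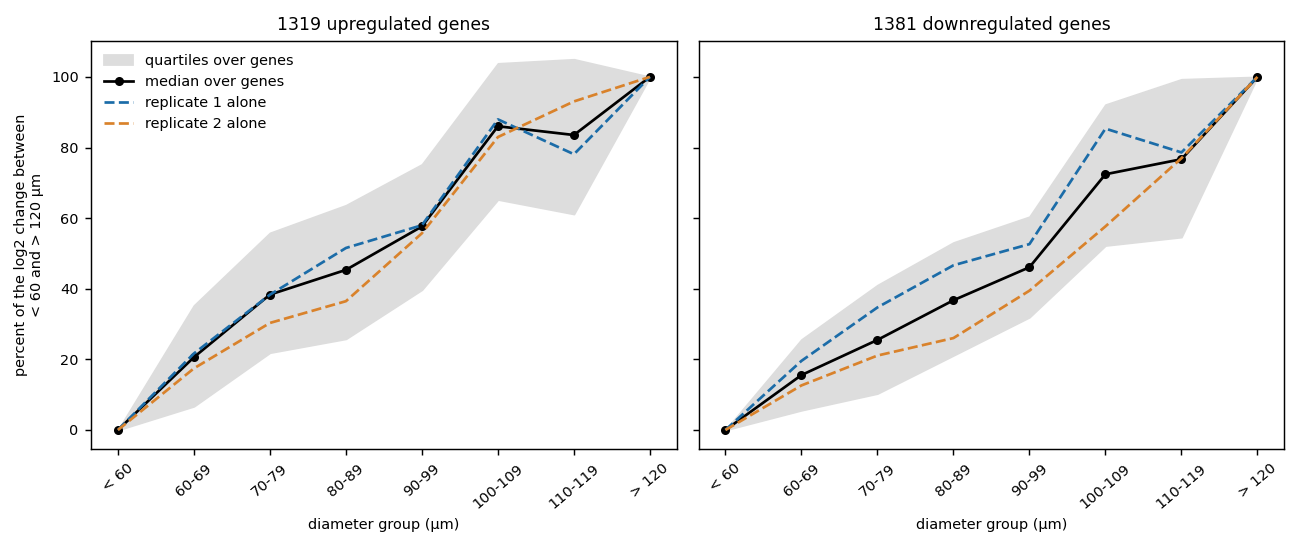
The median percent of the log2 change between oocytes < 60 and > 120 μm that was reached in each diameter group (y axis), for the 1319 upregulated genes (left) and the 1381 downregulated genes (right), with quartiles over genes in grey and each replicate alone as a dashed line. Both ends are fixed at 0 and 100, and the medians stood at 86.02% and 72.4% at 100–109 μm.

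Single genes followed different courses. CCL25 rose at each group, with medians of 1.34, 3.24, 15.9, 18.8, 31.1, 111, 167 and 397.1 CPM from the smallest to the largest oocytes. CASP1 had medians of 25.4, 16.5, 32.1, 48.0, 74.7, 67.2, 248.8 and 217 CPM, so most of its rise lay after 100–109 μm. CALB1 was already at 11.9 CPM at 90–99 μm and highest at 110–119 μm, with 28.1 CPM against 11.6 CPM at > 120 μm.

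Among the downregulated genes, CBLN4 fell early, with medians of 45.01, 27.8, 13.1, 6.87, 2.52, 0.638, 3.19 and 2.16 CPM. COX2 went from 2300.0 CPM at < 60 μm to 1113 CPM at 70–79 μm and 476 CPM at > 120 μm, with 939 CPM at 110–119 μm. CLGN had a lower median in each successive group, of 575, 523, 391, 296.6, 276.6, 169, 157 and 124 CPM. ACTG1 was higher at 60–69 μm (1601 CPM) than at < 60 μm (1061 CPM) when replicates were pooled, and the smallest group holds 3 oocytes of replicate 1, where its median was 2041 CPM, and 18 of replicate 2, where it was 946 CPM.

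**Figure D5:**
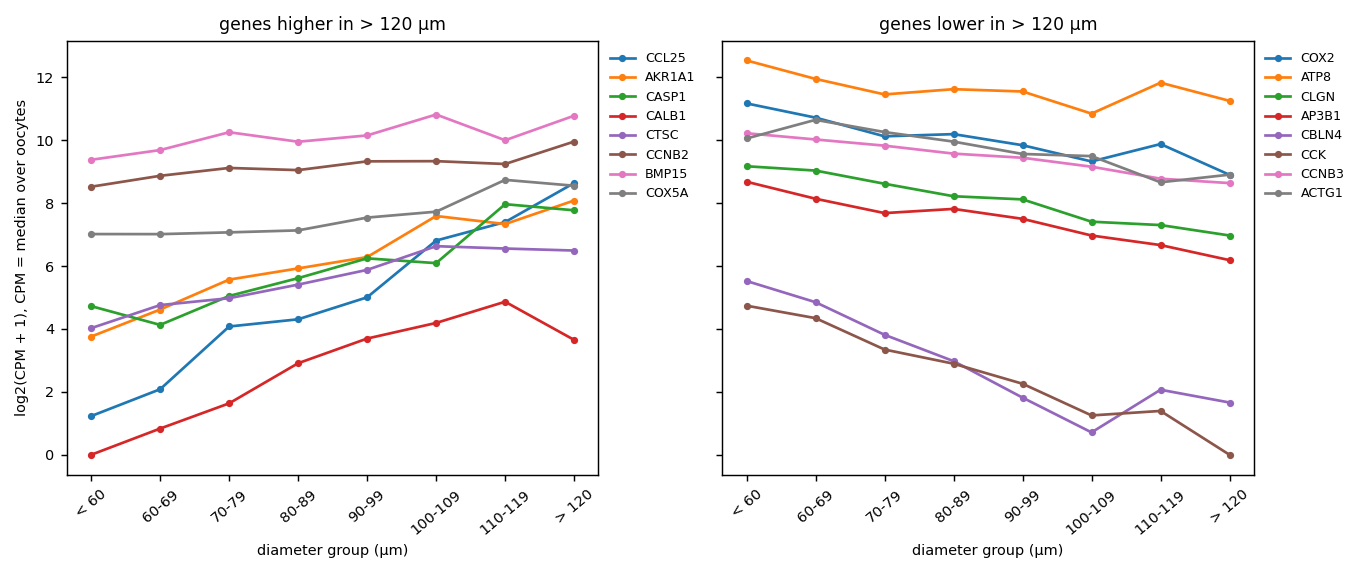
Levels of 8 upregulated (left) and 8 downregulated genes (right) in the 8 diameter groups (x axis) as log2(CPM + 1) of the median over oocytes (y axis), with both replicates pooled in proportions that differ between groups. CCL25 rose and CLGN fell at each step, and CALB1 was highest at 110–119 μm.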

How the data were processed

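Single oocytes were sequenced after oligo-dT capture, amplification with 14 cycles and Nextera XT library preparation. Per the labels and the paper's methods, the authors trimmed reads with Trim Galore (version 0.6.6), aligned them with HISAT2 to ARS-UCD1.2 and deposited raw counts per gene from SeqMonk, with no normalization or batch correction. How strand, multiple alignments and overlapping genes were counted is not given in the sources used here. Gene IDs on more than 1 line (1679 IDs, 14.8% of counts) were summed. Symbols came from the paper's gene tables, of which part was used here.

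The group and replicate of each oocyte were taken from its sample title. Counts of all 165 listed oocytes were summed by group and replicate (16 sums), filtered with filterByExpr (minimum count 10, minimum total 15), TMM-normalized and fitted with edgeR 4.0.16 (8 groups plus the replicate as a block), with Benjamini-Hochberg adjusted p below 0.05 called. Sums of 1 replicate come from 1 library batch. Their deviations correlated in each of 28 pairs (r from 0.398 to 0.694, median 0.579), so the replicate pairs the sums. The lowest r, 0.398, was that of the smallest and the largest size group, so this correlation was weakest for the comparison made here. SE is the log2 fold change divided by the root of F. CPM per oocyte used TMM effective library sizes. Oocytes are not replicates, so the main test used sums. Alternatives with single oocytes as units treat them as replicates, and their p-values are too small. In simulated data of 13550 genes for this comparison, 99% of 100 genes changed by 2 on the log2 scale and 33% of 100 changed by 1 were recovered, with 5 false calls. The simulated counts had the same spread for all genes, the same replicate effect in all size groups and no variation between oocytes. They therefore do not measure the rate of false calls in the real data.

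The named genes were the 8 upregulated and 8 downregulated genes of smallest adjusted p with 1 ID per symbol and 1 direction in both replicates (1 upregulated gene is not reported here), up to 4 called members of each list (the 2 most abundant where none was called), the mitochondrial genes, 5 single genes (BMP15, ACTL8, BCAR4, CTSC and CBLN4), and 2 IDs without a symbol each way. Further members are named to complete a count. The members and lists were chosen with earlier results of these data known. Alternatives were no block, RLE, DESeq2 1.42.0, no filter, the 4 sums alone, single oocytes with raw or ComBat-seq counts (sva 3.50.0), thinned counts, all deposited oocytes, IDs on more than 1 line left out, each sum left out, each replicate alone and, chosen after seeing the data, the deepest oocyte of each sum left out. R 4.3.3, Python 3.11.15, numpy 2.4.6, pandas 2.3.3 and matplotlib 3.10.9 were used.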

Additional observations from a re-analysis of the deposited data

How the results depend on the processing

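The shares of tested genes that were upregulated (9.36%) and downregulated (9.80%) came from 1319 and 1381 calls. These counts stayed within 1.5 times with DESeq2, with RLE scaling, without the low-count filter, with thinned counts, with single oocytes as units on raw counts (which treats oocytes as replicates), with all deposited oocytes, without duplicated IDs, with replicate 1 oocytes alone and without the deepest oocytes. Without the replicate block, and so without the pairing of sums, the shares were 0.312% and 0.263%, with 2107 genes at an unadjusted p below 0.05 against 4723. With 1 of the 4 sums left out they ranged from 3.92% to 10.1% and from 3.09% to 7.43%. With the 4 sums alone 5.27% were downregulated, with ComBat-seq counts of single oocytes 22.9% were upregulated and 20.4% downregulated, with raw counts of single oocytes 16.3% of the fewer genes tested were downregulated, and within replicate 2 the shares were 5.62% and 5.26%. Of the 2700 genes called, 99.4% to 100% of those tested kept their direction under each setting. All settings share counts with the fit that chose the genes, so this is no independent support. The upregulated course at 70–79 μm was 30.3% in replicate 2 alone.

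Of 83 named genes, 65 calls were lost without the block, 25 with the 4 sums alone, 21 and 26 within replicates 1 and 2, 15 to 33 with 1 sum left out, 2 with RLE and none with DESeq2. Direction turned for 2 genes, neither called: CPEB1 (-0.057 with single oocytes, -0.30 within replicate 2, and -0.13 to 0.56 with 1 sum left out, -0.13 being without the > 120 μm sum of replicate 1) and BRIP1 (0.30 within replicate 2, and -0.74 to 0.34 with 1 sum left out, 0.34 and 0.068 being without the sums of replicate 1). The causes were not tested. Depth limits the > 120 μm sum of replicate 2, with 4467434 counts from 4 oocytes. Genes at 0 in a group were not detectable at this depth, and a change of 1 on the log2 scale was often missed in simulated data.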
